A study of Homo sapiens with 6 samples.

Results

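The enzymes that crosslink the extracellular matrix were followed in HepG2 cells after TGFβ treatment: the lysyl oxidases LOX, LOXL1, LOXL2, LOXL3 and LOXL4, the lysyl hydroxylases PLOD1, PLOD2 and PLOD3, and the transglutaminase TGM2. They were chosen by gene name from the deposited count table, where each name had 1 row, so they are 9 of its 57773 genes. HepG2 is a hepatocyte-like line established from a human liver tumor. It was grown in monolayer with serum, which the study's methods replaced by serum-free medium for treatment, and 3 cultures received recombinant human TGFβ1 at 5 ng/mL while 3 received vehicle, each for 3 h. All 6 cultures carry the same genotype, that of 1 tumor line, without the fibroblasts and stellate cells that lay down most matrix in liver. RNA was measured, not protein, enzyme activity or crosslinks.

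Lysyl hydroxylases act first, in the endoplasmic reticulum, where they add hydroxyl groups to lysines of procollagen. Lysyl oxidases act outside the cell as copper-dependent amine oxidases that turn lysines and hydroxylysines of collagen and elastin into aldehydes, which then join neighboring chains. TGM2 links glutamine to lysine side chains of matrix proteins such as fibronectin and also works inside the cell. These enzymes are known for their part in the stiffening of fibrotic liver, and TGFβ is a widely known inducer of matrix genes.

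With TGFβ, 4 of the 9 genes were higher and 0 were lower: LOXL4 rose by 1.79-fold, LOX by 1.74-fold, TGM2 by 1.62-fold and PLOD2 by 1.46-fold. Each of the families thus held at least 1 member that rose, with 2 of 5 lysyl oxidases and 1 of 3 lysyl hydroxylases. Among all 22747 genes with enough reads for testing, 4.12% passed the same rule, 3.11% higher and 1.01% lower. The 9 genes were chosen with earlier results of these data known, which limits this comparison. The rule is an FDR under 0.05, from the quasi-likelihood test of edgeR and Benjamini-Hochberg adjustment over every tested gene. The median log2 fold change was 0.17 over the 9 genes and -0.0054 over all tested genes. The TGFβ and vehicle cultures did not overlap for the same 4 genes, against 10.4% of all tested genes with every TGFβ culture on top and 8.23% with every TGFβ culture below. In bulk RNA, a change in the number of cells that express a gene and a change in the RNA per cell cannot be told apart.

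The start regions of the genes that rose are shown first. RefSeq promoter windows (250 bases before to 50 bases after a start site) were used for 7 of the 9 genes, not for TGM2 or LOXL2. These 7 include 3 of the genes that rose. All 10 windows of the 7 genes matched GRCh37, the build of the counts, exactly and at 1 place. In the sequences below, read 5′ to 3′ on the strand of the gene, capitals mark the core SMAD motif (CAGAC or GTCTG) and the core hypoxia response motif (ACGTG or GCGTG, or CACGT or CACGC when read on the other strand). The LOX window lies on the minus strand at chr5:121413905-121414204, the PLOD2 window on the minus strand at chr3:145878922-145879221 and the LOXL4 window on the minus strand at chr10:100027902-100028201.
LOX: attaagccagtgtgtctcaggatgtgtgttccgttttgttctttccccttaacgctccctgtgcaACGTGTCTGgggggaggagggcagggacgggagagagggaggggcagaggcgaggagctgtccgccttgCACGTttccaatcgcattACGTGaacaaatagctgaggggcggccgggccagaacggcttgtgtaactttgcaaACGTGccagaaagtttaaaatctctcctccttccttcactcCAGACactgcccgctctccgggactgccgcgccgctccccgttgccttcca
PLOD2: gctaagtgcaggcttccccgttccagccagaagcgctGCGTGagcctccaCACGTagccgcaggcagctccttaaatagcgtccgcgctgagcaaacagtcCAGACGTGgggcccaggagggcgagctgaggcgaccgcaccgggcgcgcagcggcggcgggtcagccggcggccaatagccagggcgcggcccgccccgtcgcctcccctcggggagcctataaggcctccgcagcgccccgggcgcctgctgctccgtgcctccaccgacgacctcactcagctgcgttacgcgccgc
LOXL4: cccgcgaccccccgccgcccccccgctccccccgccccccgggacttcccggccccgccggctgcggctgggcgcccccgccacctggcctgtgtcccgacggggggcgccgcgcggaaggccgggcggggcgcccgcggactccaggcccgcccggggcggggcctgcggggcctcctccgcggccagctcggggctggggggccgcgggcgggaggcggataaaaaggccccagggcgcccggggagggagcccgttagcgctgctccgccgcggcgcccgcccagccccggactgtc

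The LOX window held 2 SMAD cores, whose first bases lie at -181 and -1 from the start site, and 4 hypoxia cores, at -185, -116, -98 and -42. The PLOD2 window held 1 SMAD core at -149 and 3 hypoxia cores at -213, -200 and -146, the last of which shares bases with the SMAD core. In LOX the SMAD core at -181 likewise shares a base with the hypoxia core at -185. The LOXL4 window, with a GC content of 85.3%, held 0 of either. Of all 35116 RefSeq windows of the same length, 45.3% held a SMAD core, 48.4% a hypoxia core and 7.71% an AP-1 motif (TGANTCA on either strand). Of the genes that did not pass the test, PLOD1 had 2 hypoxia cores and LOXL1 had 1 SMAD core, while PLOD3 had 0 of either. A second LOXL3 window held 1 of each, and 2 further LOX windows, which share most of their bases with each other, held 2 of each. None of the 10 windows held the AP-1 motif. The LOX start site used here lies 26 bases inside the end of LOX in the count table, that of LOXL4 56 bases and that of PLOD2 2469 bases. A match of letters is a description and not a site of binding.

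The libraries were deep, with 60815385 to 100099136 reads counted on genes per culture, and 9 of 9 hepatocyte markers were over 1 CPM in every culture. CPM values are counts per 1000000 reads after TMM scaling, which sets the libraries to a common effective size. The treatment labels held for SMAD7, SKIL and PMEPA1, TGFβ feedback genes that rose 3.30-fold, 5.45-fold and 19.8-fold (edgeR FDR 3.73e-05, 8.43e-06 and 4.41e-05). The summed level of 9 fibroblast and stellate cell markers was 52.5 to 57.4 CPM with vehicle and 62.8 to 71.4 CPM with TGFβ. This gap came mainly from PDGFRB, which had an edgeR FDR of 0.0582 without and 7.25e-06 with the culture number as a block (fold change 2.33), and COL1A1, which had 0.193 and 0.00806. Without the block, 0 of the 3 tested markers of this list passed. ACTA2, the largest part of the sum, had 39.7 ± 2.33 CPM with vehicle and 39.2 ± 2.43 CPM with TGFβ (SD, edgeR FDR 0.958). In contrast, COL1A2, COL3A1, DCN, LUM, PDGFRA and THY1 had at most 14 reads in any culture, and LUM and THY1 had 0 in all 3 TGFβ cultures. The 4 endothelial markers used summed to at most 0.272 CPM. The 5 leukocyte markers summed to 1135 to 1459 CPM with vehicle and 987 to 1087 CPM with TGFβ, nearly all of it LYZ. LYZ had a log2 fold change of -0.35 (edgeR FDR 0.106 without and 0.0157 with the block). CD68 had 36.8 ± 1.89 CPM with vehicle and 38.4 ± 2.33 CPM with TGFβ (SD). CD14 had 2.21 ± 0.766 CPM with vehicle and 2.84 ± 0.610 CPM with TGFβ (SD). Without the block, 0 of the 3 tested leukocyte markers passed, and PTPRC and CD3E had at most 1 read in any culture. The part of these markers in the results below was not tested.

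**Figure D1:**
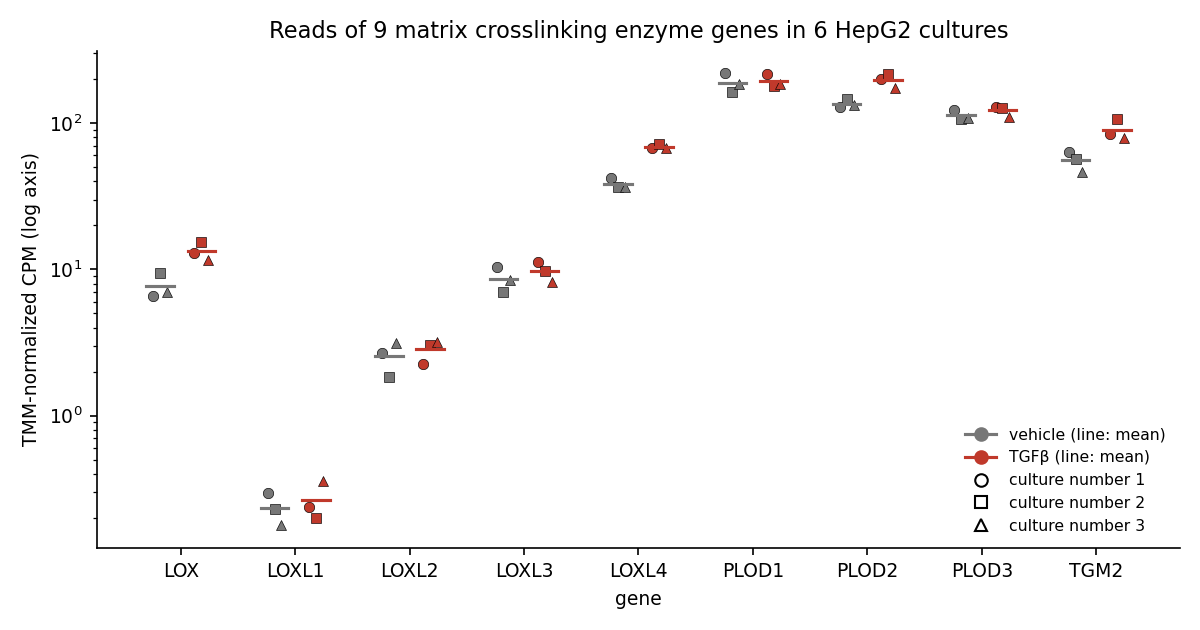
TMM-normalized CPM (log axis) of the 9 genes in the 3 vehicle (gray) and 3 TGFβ (red) cultures, with a marker shape for each culture number and a line at each group mean. The red points of LOX, LOXL4, PLOD2 and TGM2 lie above all gray points of the same gene, and those of the other 5 genes mix with them.

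LOXL4 had the largest fold change of the 9 genes. It encodes a secreted amine oxidase of the branch of the family with scavenger receptor domains. LOXL4 (ENSG00000138131, minus strand, chr10:100007447-100028007) had 41.9, 36.5 and 36.6 CPM in vehicle cultures 1, 2 and 3 and 67.1, 71.9 and 67.5 CPM in TGFβ cultures 1, 2 and 3. All TGFβ cultures were above all vehicle cultures, and the lowest of them exceeded the highest vehicle culture by more than the whole range within either group. The means were 38.3 ± 3.06 CPM (SD, n = 3) and 68.8 ± 2.66 CPM (SD, n = 3), a log2 fold change of 0.84 (standard error 0.08, edgeR FDR 0.000385). LOXL4 kept its call with any single culture left out, with log2 fold changes from 0.80 to 0.90.

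LOX, the founding lysyl oxidase, which acts on fibrillar collagens and elastin, was much lower in reads. LOX (ENSG00000113083, minus strand, chr5:121398890-121413980) had 6.559, 9.412 and 7.016 CPM in the vehicle cultures and 13.003, 15.460 and 11.606 CPM in the TGFβ cultures. The groups did not overlap, and culture 2 was the highest in both. The means were 7.66 ± 1.53 CPM and 13.4 ± 1.95 CPM (SD, n = 3 each), with a log2 fold change of 0.80 (standard error 0.16, edgeR FDR 0.0216). The call was lost without vehicle culture 1 (edgeR FDR 0.0802), vehicle culture 3 (edgeR FDR 0.114) or TGFβ culture 2 (edgeR FDR 0.103), with log2 fold changes between 0.67 and 0.74 in these fits.

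TGM2 (ENSG00000198959, minus strand, chr20:36756863-36794980) is the broadly expressed tissue transglutaminase. It had 63.4, 56.6 and 46.5 CPM in the vehicle cultures and 84.5, 106 and 78.7 CPM in the TGFβ cultures. The groups again did not overlap, with TGFβ culture 2 the highest and vehicle culture 3 the lowest. The means were 55.5 ± 8.47 CPM and 89.8 ± 14.4 CPM (SD, n = 3 each), with a log2 fold change of 0.69 (standard error 0.13, edgeR FDR 0.0179). TGM2 lost its call without vehicle culture 2 (edgeR FDR 0.0930), vehicle culture 3 (edgeR FDR 0.0779) or TGFβ culture 2 (edgeR FDR 0.0640), with log2 fold changes between 0.54 and 0.70.

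PLOD2, the lysyl hydroxylase known for the telopeptide lysines of collagen, showed the smallest of the 4 rises. PLOD2 (ENSG00000152952, minus strand, chr3:145787227-145881440) had 128, 145 and 132 CPM in the vehicle cultures and 201, 215 and 174 CPM in the TGFβ cultures. The lowest TGFβ culture, number 3, still lay above the highest vehicle culture, number 2. The means were 135 ± 9.26 CPM and 197 ± 20.8 CPM (SD, n = 3 each), with a log2 fold change of 0.54 (standard error 0.09, edgeR FDR 0.00907). PLOD2 lost its call only without vehicle culture 3 (edgeR FDR 0.0577), at a log2 fold change of 0.53.

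For each of LOX, LOXL4, TGM2 and PLOD2 the exact two-sided permutation test on CPM gave P = 0.1, the smallest value that 3 cultures against 3 allow.

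The other 5 genes did not pass the test, and their fold changes are given with 95% intervals. PLOD1 (ENSG00000083444, plus strand, chr1:11994262-12035595), which hydroxylates lysines in the collagen helix, had 218, 163 and 185 CPM with vehicle and 217, 178 and 184 CPM with TGFβ. Culture 1 was the highest of both groups and the groups lay on top of each other, with a fold change of 1.02 and an interval from 0.855 to 1.22 (edgeR FDR 0.946). PLOD3 (ENSG00000106397, minus strand, chr7:100849258-100861701), which also glycosylates hydroxylysine, had 123, 107 and 108 CPM with vehicle and 129, 126 and 109 CPM with TGFβ. TGFβ culture 3 lay among the vehicle cultures, and the fold change of 1.08 had an interval from 0.938 to 1.24 (edgeR FDR 0.722).

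LOXL3 (ENSG00000115318, minus strand, chr2:74759541-74782817), a further lysyl oxidase with scavenger receptor domains, had 10.4, 7.05 and 8.46 CPM with vehicle and 11.2, 9.71 and 8.24 CPM with TGFβ. The ranges overlapped, and the fold change was 1.13 with an interval from 0.873 to 1.46 (edgeR FDR 0.768). LOXL2 (ENSG00000134013, minus strand, chr8:23154702-23282841), known for crosslinking collagen IV, had 2.70, 1.83 and 3.12 CPM with vehicle and 2.24, 3.06 and 3.21 CPM with TGFβ. No order of the groups could be seen for LOXL2, at a fold change of 1.11 with an interval from 0.783 to 1.58 (edgeR FDR 0.860). LOXL1 (ENSG00000129038, plus strand, chr15:74218330-74244478), known for its part in elastic fibers, had 26, 19 and 11 reads with vehicle and 23, 16 and 26 reads with TGFβ, or 0.179 to 0.357 CPM over the 6 cultures. At this depth its interval, from 0.647 to 1.89 (edgeR FDR 0.919), also holds folds as large as that of LOXL4.

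**Figure D2:**
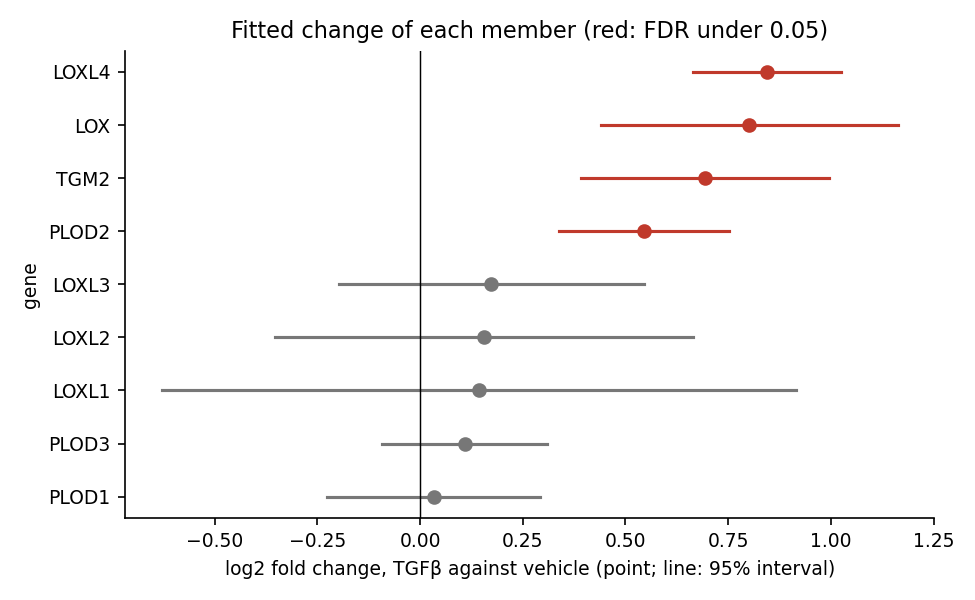
Fitted log2 fold change of each gene, TGFβ against vehicle (points), with its 95% interval from the quasi-likelihood fit (lines); red marks an FDR under 0.05. The intervals of LOXL4, LOX, TGM2 and PLOD2 lie above 0 and those of the other 5 genes cross it, that of LOXL1 being the widest, from -0.63 to 0.91.

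Same-numbered cultures were also compared with each other, since the 2 cultures of numbers 1 and 2 were sequenced on a shared lane (lanes 1 and 3), while the vehicle and TGFβ cultures of number 3 were on lanes 4 and 5. Within pairs 1, 2 and 3 the log2 CPM of LOXL4 differed by 0.68, 0.98 and 0.88, and that of LOX by 0.98, 0.71 and 0.72. For TGM2 the differences were 0.41, 0.91 and 0.76, and for PLOD2 they were 0.66, 0.57 and 0.40. All 12 of these differences were positive, which already follows from the lack of overlap between the groups for these genes. LOXL2 went from -0.27 in pair 1 to 0.73 in pair 2, and LOXL1 from -0.28 in pair 1 to 0.91 in pair 3, so neither gene moved one way in the pairs.

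**Figure D3:**
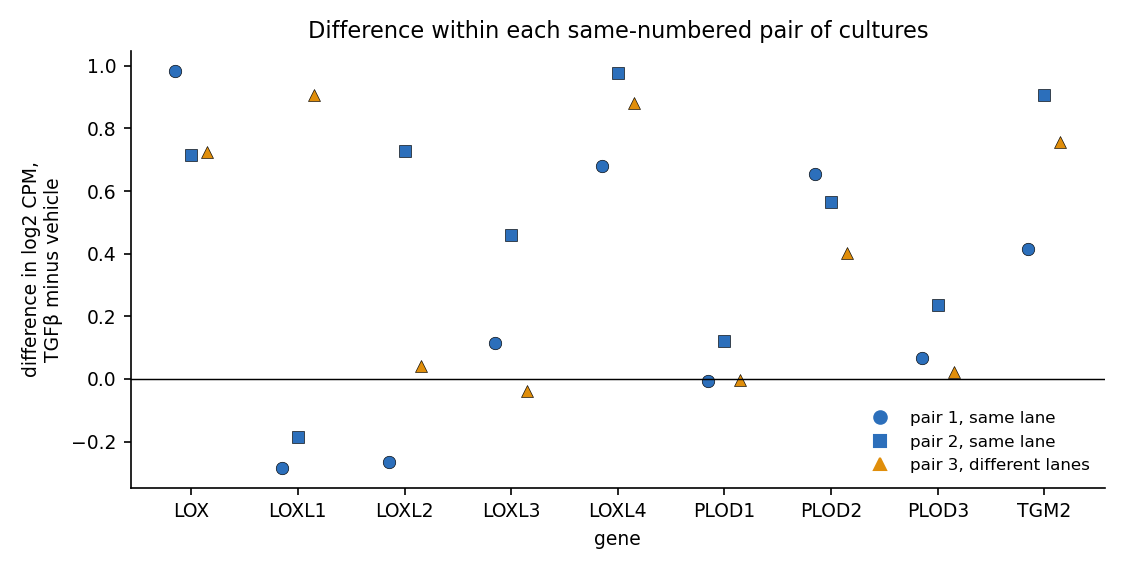
Difference in log2 CPM, TGFβ minus vehicle, within each same-numbered pair of cultures, for the 9 genes; blue marks pairs on 1 lane and orange the pair on different lanes. All points of LOX, LOXL4, PLOD2 and TGM2 lie above 0, from 0.40 to 0.98, as they must where the groups do not overlap.

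Levels of different genes were compared per length, as the deposited RPKM (reads scaled by the gene length given in the table and by a library total set by the authors). In vehicle cultures the order from high to low was PLOD1, PLOD3, PLOD2, LOXL4, TGM2, LOXL3, LOX, LOXL2 and LOXL1, from 29.3 ± 3.82 RPKM for PLOD1 to 0.0532 ± 0.0130 RPKM for LOXL1 (SD, n = 3 each). The ranges over the 3 cultures overlapped for 2 neighbors in this order, PLOD3 with PLOD2 and LOXL3 with LOX. With TGFβ both of these pairs changed places in the order of means. Their ranges still overlapped, as did those of PLOD3 and LOXL4. PLOD2 was above PLOD3 in 1 of 3 vehicle cultures and in 3 of 3 TGFβ cultures, with a ratio of 0.767 to 1.01 with vehicle and 1.15 to 1.26 with TGFβ. LOX was above LOXL3 in 1 of 3 vehicle cultures and in 2 of 3 TGFβ cultures. For the ratio of PLOD2 to PLOD3 in each culture, the exact two-sided permutation test gave P = 0.1, the smallest possible, and for LOX to LOXL3 it gave P = 0.2. These ratios were chosen after the values were seen, and within a culture they do not depend on the library total.

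LOXL4 made up most of the per-length reads of the lysyl oxidases in every culture, 72.4% to 73.5% of the summed RPKM of the 5 genes with vehicle and 77.2% to 79.8% with TGFβ. LOX held 9.84% ± 2.48 and 10.1% ± 1.00 (SD, n = 3 each), and the share of LOXL3 was 13.7% ± 1.76 with vehicle and 9.26% ± 1.39 with TGFβ. The ratio of LOXL4 to LOX was between 5.80 and 9.55 in vehicle cultures and between 6.96 and 8.70 in TGFβ cultures, ranges that lie over each other. The summed level of the 5 genes was 11.9 ± 0.750 RPKM with vehicle and 19.4 ± 1.54 RPKM with TGFβ. Among the lysyl hydroxylases the share of PLOD2 was 24.3% ± 3.36 with vehicle and 30.8% ± 2.39 with TGFβ, that of PLOD1 48.4% ± 3.47 and 43.5% ± 3.14, and that of PLOD3 27.2% ± 0.406 and 25.7% ± 0.768. The summed level of the lysyl hydroxylases overlapped between the groups, at 57.9 to 64.9 RPKM with vehicle and 59.5 to 73.1 RPKM with TGFβ.

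**Figure D4:**
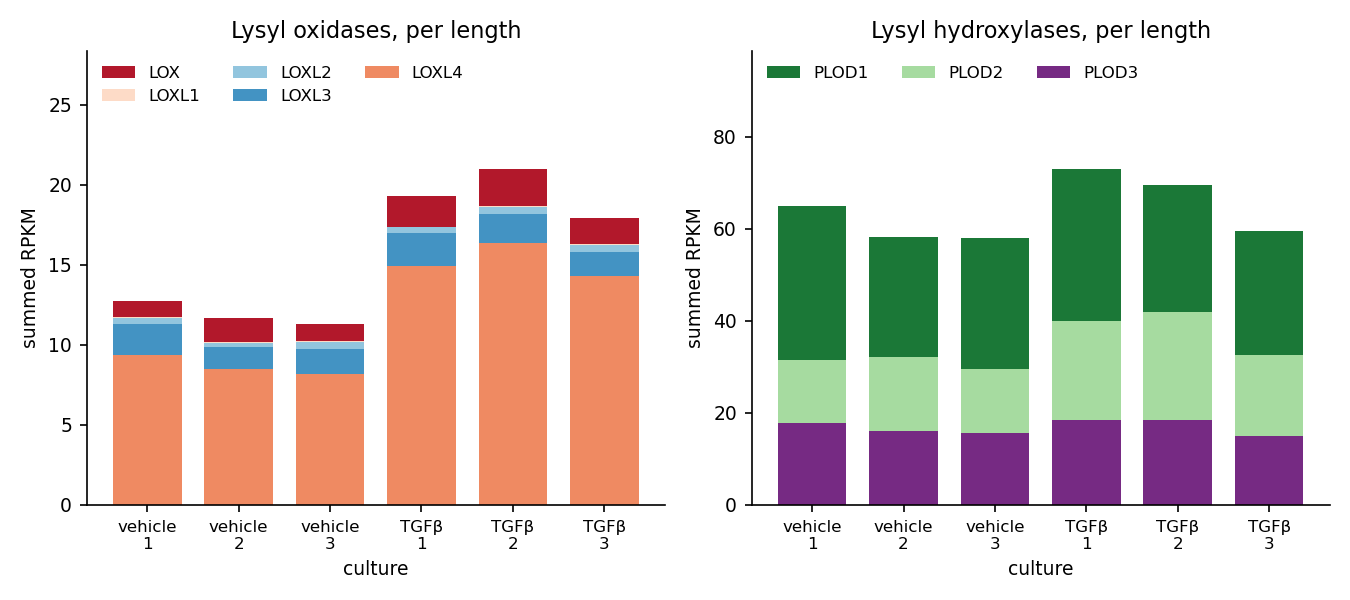
Summed deposited RPKM of the lysyl oxidases (left) and lysyl hydroxylases (right) in each of the 6 cultures, with 1 color per gene. LOXL4 fills most of each lysyl oxidase bar and the TGFβ bars are all taller than the vehicle bars (17.9 to 21.0 against 11.3 to 12.7), while the lysyl hydroxylase bars overlap in height and PLOD1 is the largest part of each.

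Several of these genes overlap another gene in the table, and the sources used here do not say whether counting used strand. RP11-34A14.3, on the opposite strand and wholly inside LOXL4, had 109 to 191 reads with vehicle and 242 to 353 with TGFβ, and was also higher with TGFβ, with a log2 fold change of 0.93 (edgeR FDR 0.0106). Without strand its reads cannot be told apart from those of LOXL4, which had 2255 to 6503. SRFBP1, on the opposite strand of LOX with an overlap of 12376 bases, had a log2 fold change of -0.12 (edgeR FDR 0.806). LOXL1-AS1, on the opposite strand of LOXL1 with an overlap of 2260 bases, had 6 to 13 reads in each culture, against 11 to 26 for LOXL1, and was not tested. RP11-274H2.2, on the opposite strand of PLOD2, had 1 to 4 reads with vehicle and 6 to 19 with TGFβ, too few to be tested. No gene of the table overlapped TGM2 or PLOD1. ZNHIT1 beside PLOD3 had a log2 fold change of -0.0063, and the partners of LOXL3 (HTRA2 and DOK1) and of LOXL2 (ENTPD4 and RP11-177H13.2) did not pass the test, with an edgeR FDR of 0.615 or more for each.

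The wider collagen maturation and crosslinking machinery was followed as a list of 49 further genes. Of these 36 had enough reads, and with TGFβ 1 (2.78%) passed as higher and 0 as lower, a share near the 4.12% of all tested genes. The median of the list was 0.04 on the log2 scale, with positive values for 22 genes. With the replicate number as a block, 4 were higher and 1 was lower, where that fit called 8.08% of all tested genes higher and 3.75% lower, and it called the same 4 of the 9 crosslinking enzymes.

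The gene that rose was COL4A2, a chain of basement membrane collagen IV. COL4A2 (ENSG00000134871, plus strand, chr13:110958159-111165374) had 46, 40 and 23 reads with vehicle and 121, 128 and 113 reads with TGFβ. The groups were far apart, at a log2 fold change of 1.66 (standard error 0.23, edgeR FDR 0.00294). Its partner chain COL4A1 had at most 8 reads in any culture and was not tested, as were PXDN and PXDNL, peroxidasins of which the first crosslinks collagen IV, with at most 2 and 5 reads.

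With the block, COL1A1, BMP1 and EFEMP2 were also higher and P3H4 was lower. COL1A1, a chain of collagen I, had 9.88, 5.35 and 7.39 CPM with vehicle and 12.3, 10.5 and 10.7 CPM with TGFβ, which did not overlap, and an edgeR FDR of 0.193 without and 0.00806 with the block. Collagen I needs a COL1A2 chain in its usual form, and COL1A2 had at most 6 reads in any culture. BMP1, which cleaves procollagen and the propeptide of LOX, had a log2 fold change of 0.38 and an edgeR FDR of 0.172 without and 0.00439 with the block. EFEMP2, a fibulin that tethers LOX to elastin, had 0.30 with an edgeR FDR of 0.203 and 0.0447. P3H4, a partner of lysyl hydroxylation, had -0.19 with an edgeR FDR of 0.341 and 0.0439.

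In each group of the list with tested genes, the gene with most reads did not pass the test. Fibronectin (FN1), a TGM2 substrate, had 11069 ± 1168 CPM with vehicle and 11529 ± 1813 CPM with TGFβ (edgeR FDR 0.907). PPIB, the cyclophilin of the procollagen hydroxylation complex, had a log2 fold change of 0.0078 (edgeR FDR 0.979), and P4HB, a subunit of prolyl hydroxylase, had 0.07 (edgeR FDR 0.831). The collagen chaperone SERPINH1 had 0.05 (edgeR FDR 0.864), and SLC31A1, the copper importer of the plasma membrane, had -0.10 (edgeR FDR 0.712). In the list group of other transglutaminases and factor XIII subunits, TGM1 had 1.86 ± 0.114 CPM with vehicle and 1.54 ± 0.237 CPM with TGFβ (log2 fold change -0.27, edgeR FDR 0.636). F13B, with the same 825 reads over the 6 cultures, had 1.65 ± 0.372 and 1.85 ± 0.833 CPM (log2 fold change 0.16, edgeR FDR 0.894), while TGM3, TGM6, TGM7 and F13A1 had at most 1 read in any culture.

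**Figure D5:**
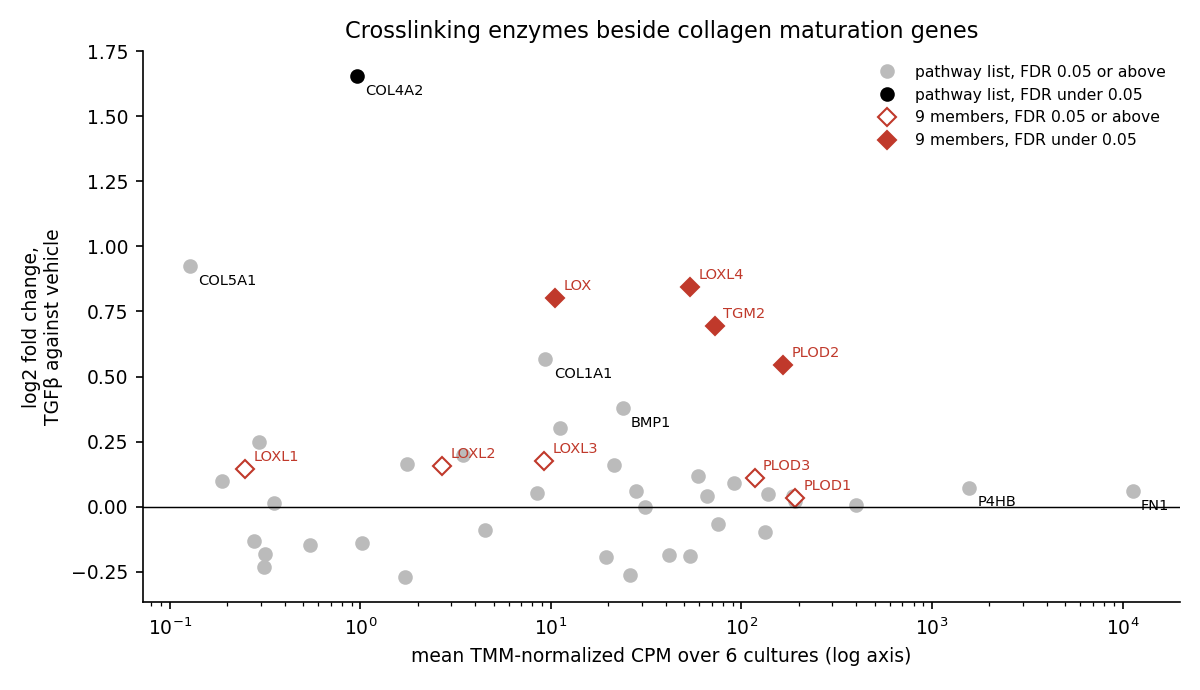
Fitted log2 fold change, TGFβ against vehicle, by mean TMM-normalized CPM (log axis) for the 9 crosslinking enzymes (red diamonds, filled at an FDR under 0.05) and the 36 tested genes of the collagen maturation list (circles, black at an FDR under 0.05). LOX, LOXL4, TGM2 and PLOD2 lie between 0.54 and 0.84, and of the list COL4A2 at 1.66 is the 1 black point.

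The genes whose values followed those of LOXL4 most closely over the 6 cultures were WBP1L, PLEKHA7 and NUPR1, out of 15898 genes with a mean of at least 1 CPM. Their distances to LOXL4 in centered log2 CPM were 0.0977, 0.102 and 0.134, which describes 6 libraries in 2 groups only. PLEKHA7, a component of adherens junctions, had 42.4 to 47.4 CPM with vehicle and 72.4 to 80.4 CPM with TGFβ, and NUPR1, a small stress-induced nuclear protein, had 33.0 to 38.6 and 64.1 to 65.6 CPM. On the same measure TGM2 ranked 173, PLOD2 322 and LOX 475, at distances of 0.380, 0.496 and 0.561.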

How the data were processed

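RNA from 3 vehicle and 3 TGFβ cultures of HepG2 cells was sequenced by the authors from TruSeq mRNA libraries, aligned to hg19 and counted per gene with MAPRseq; the submitters' processing notes name TopHat2 2.0.6 and HTSeq. The deposited counts are raw whole numbers per gene, and the RPKM values deposited beside them are counts scaled by gene length and by a library total that was 1.19 to 1.28 times the reads counted on genes. The sources used here give neither the annotation release nor the strand setting.

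Counts were tested with edgeR 4.0.16 (limma 3.58.1, R 4.3.3): TMM, filterByExpr, the quasi-likelihood F test (robust, no block) and Benjamini-Hochberg adjustment. Standard errors were derived from F, and 95% intervals use them with the fit's degrees of freedom. Log2 CPM used a prior count of 2. Permutation tests enumerated all splits. The steps were tested on simulated counts. Across genes, cultures that share a number deviated from their group means together (r from 0.227 to 0.366, against 0.0101 or less for other pairs). The numbers were used as pairs only for the within-pair differences and the replicate block, not in the main fit or the permutation tests. The study's methods call the sequenced cultures biological replicates, and describe the replicates behind its graphs as independent. Nothing states separate thaws or days, so P values measure the spread between these cultures. Named were the 9 enzymes, the called genes and the most abundant gene per group of the list, genes overlapping a member, the 3 nearest to the leading member, and 3 treatment checks. Genes called with the block were added after their values were seen. Members and lists were chosen with earlier results of these data known. Alternatives were DESeq2 1.42.0, its size factors, total-count scaling, other filters, limma-voom, the exact test, the block and each culture left out. Of 5 endothelial markers listed, 4 were used here.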

Additional observations from a re-analysis of the deposited data

How the results depend on the processing

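The count of called enzymes stayed at 4 of 9, all higher, with DESeq2, limma-voom, edgeR's exact test, both other scalings, both other filters (none, or 10 or more counts per library) and the replicate block, which changed no call among the 9 enzymes. It was between 1 and 4 with single cultures left out: 1 without vehicle replicate 3, where LOXL4 alone passed, and 2 without TGFβ replicate 2, where LOXL4 and PLOD2 passed. On the list of 36 tested genes the count was 5 with the replicate block and between 1 and 3 with single cultures left out, the 3 coming without vehicle replicate 1. Over all tested genes, 937 passed, 2690 with the replicate block and between 485 and 998 with single cultures left out. The sign turned for genes that passed in none of the fits: PLOD1 was at -0.0079 on the log2 scale with total-count scaling and from -0.067 (vehicle replicate 2 left out) to 0.14 with single cultures left out, also at -0.066 when TGFβ replicate 1 was left out. LOXL1 was from -0.12 (TGFβ replicate 3 left out) to 0.34, and LOXL2 from -0.041 (vehicle replicate 2 left out) to 0.32. The cause of these changes was not tested. Scaled by the reads counted on genes with TMM in place of the authors' totals, per-length levels were 1.21 to 1.25 times as high. The authors' totals were 1.19 to 1.28 times the reads counted on genes, and the TMM factors were 0.968 to 1.03. With this change of scale, 14 of 18 group means moved by more than 1 SD. Depth limited LOXL1 most, with 11 to 26 reads per culture.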
